A study of Homo sapiens with 14 samples.

Results

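Muscle contractile and myogenic genes were followed through RNA-seq of CHP-134 cells, a human neuroblastoma line with amplified MYCN. The members were 48 genes chosen by symbol: transcription factors of the muscle lineage, parts of the sarcomere, the dystrophin complex and the calcium store of muscle, and a few relatives that many other cells also use. Of these 48, the count table of the engineered cells listed 44 among 17810 gene identifiers, and that of the parental cells listed 46 among 19143. TNNI2, TNNT3, ACTN3 and CRYAB in the former, and MYL1 and ACTN3 in the latter, were not analysed here.

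The engineered cells carried a lentiviral Tet-On construct for either EGFP or OmoMYC, a MYC-derived inhibitor of MYC proteins, in separately made lines that were selected with G418 and grown in tetracycline-approved serum. Both lines received 1 µg/ml doxycycline for 3 days, with 3 libraries each. Parental CHP-134 cells, grown in normal serum, received 500 nM dTAG47 or its vehicle DMSO for 18 h, with 4 libraries each. dTAG47 is a degrader compound that acts on proteins fused to a matching tag, and the parental line carries no engineered tag, so this arm asked what the compound does on its own. Since each induced protein was in its own line, effects of the protein and of the line cannot be told apart.

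A muscle fibre contracts when calcium, released from the sarcoplasmic reticulum through the ryanodine receptor, binds troponin on the thin actin filament and lets the myosin of the thick filament pull on it. The Z disc anchors the thin filaments, and the dystrophin complex ties the whole apparatus to the membrane and the matrix outside. In the embryo this programme is switched on by basic helix-loop-helix factors such as MYOD1 and MYOG, which bind the E-box, together with MEF2 proteins, which bind an A/T-rich box. MEF2 proteins also act in neurons, and many tropomyosins, actinin relatives and calponin relatives belong to the ordinary cytoskeleton.

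Library totals ran from 28060817 to 38358128 counts in the engineered cells and from 40861430 to 53451641 in the parental cells. As a check of the labels, counts on MYC, the parent gene of the OmoMYC sequence, were 0.610 ± 0.068 CPM (counts per 1000000 of the TMM-scaled library total, mean ± SD) with EGFP and 522 ± 7.85 CPM with OmoMYC, and MYCN was 2713 ± 266 and 2240 ± 66.0 CPM. Of the adrenergic neuroblastoma markers, the EGFP and OmoMYC lines held 303 ± 17.6 and 323 ± 14.6 CPM of GATA3, and 258 ± 19.8 and 275 ± 12.2 CPM of HAND2, neither called. Of the 7 markers, 3 were induced. ISL1 went from 30.0 to 50.5 CPM (log2 fold change 0.75), DBH from 0.405 to 1.16 CPM (1.49) and TH from 0.238 to 0.769 CPM (1.66). DBH and TH were thus near the low-count filter (about 0.337 CPM in at least 3 libraries). TH, with an EGFP mean under it, needed its OmoMYC libraries to be tested. The skeletal muscle markers summed to 34.9 to 41.5 CPM with EGFP and 40.3 to 42.6 CPM with OmoMYC. Most of this was CKM, at 21.0 and 24.6 CPM on average. Of these 10 markers, 7 were listed, 4 tested and none called. The defining MYOD1 and MYF6 were at or under 3 counts in every library. Smooth muscle markers summed to 9.72 to 13.1 and 12.5 to 13.4 CPM, with MYOCD at or under 3 counts. Of these 6 markers, 5 were tested, with 2 induced and 1 suppressed. Mesenchymal markers summed to 375 to 387 and 287 to 314 CPM. Most of this sum and of its fall was TWIST1, which went from 283 to 211 CPM, while COL1A1 and DCN rose. Of these 8 markers, 7 were tested, with 2 induced and 3 suppressed. For comparison, 27.3% of all genes tested were induced and 25.7% suppressed. The part of any cell mixture in the results was not tested, and in bulk RNA fewer cells of a type and less RNA per cell cannot be told apart.

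In the control libraries most of the muscle genes that were well expressed were those shared with non-muscle cells. Compared per kilobase of annotated exon, the highest level with EGFP was that of CKB, the brain-type creatine kinase, at 291 CPM per kb. It was followed by CNN3, an actin-binding calponin relative of non-muscle cells, at 43.1, by FHL1, a LIM-domain scaffold, at 23.1, by MYL6B, an alkali myosin light chain, at 20.4, and by TPM3, a tropomyosin, at 17.3 CPM per kb. CKM, the muscle-type creatine kinase, stood at 13.5 and MYOG, the factor of late muscle differentiation, at 5.54 CPM per kb. In the DMSO libraries CKB (201) and CNN3 (39.7) were again highest, followed by NCAM1 (29.8), taken up below, SGCB, a sarcoglycan (20.3), and FHL1 (18.7).

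At the other end were genes with almost no reads. MYH7 and MYH8, myosin heavy chains, ACTC1, the cardiac actin, and MYOD1 stayed at or under 3 counts in every library of either experiment. MYH3, the embryonic myosin heavy chain, was the only heavy chain among the members with enough counts to be tested, at 0.738 CPM per kb with EGFP and 0.618 with DMSO. Both tables were counted and normalised apart, so levels across them are set side by side without a test.

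**Figure D1:**
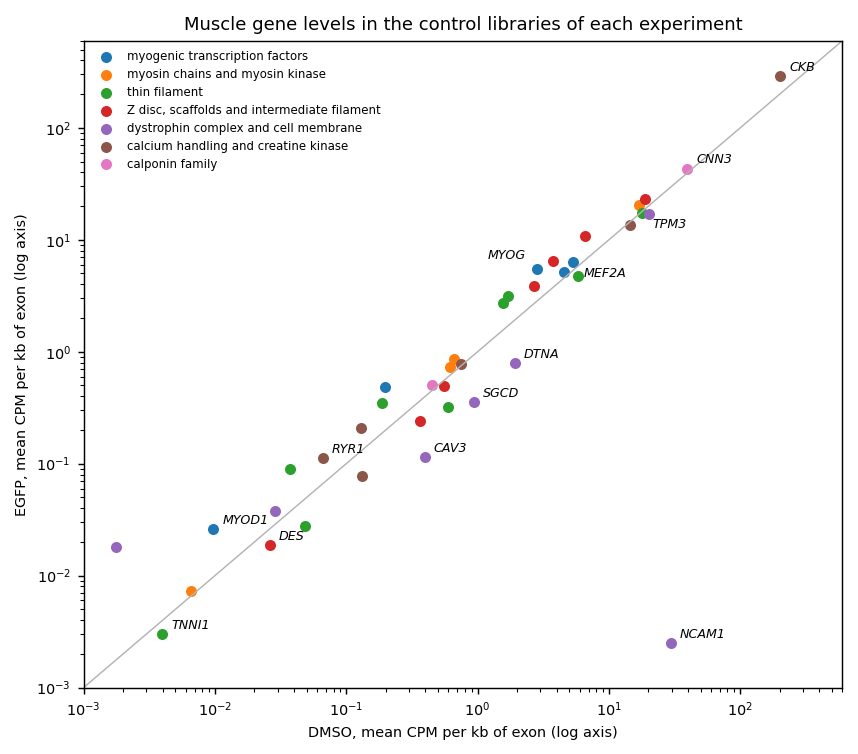
Mean level of each muscle gene in the EGFP libraries (y axis, n = 3) against the DMSO libraries (x axis, n = 4), in CPM per kilobase of exon on log axes, with colours for roles and the grey line for equal levels. CKB is highest in both, at 291 and 201 CPM per kb. NCAM1 under the identifier common to both tables lies far off the line, at 0.00249 with EGFP and 29.8 with DMSO, and genes at 0 in either group are not drawn.

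NCAM1, the neural cell adhesion molecule that also marks muscle precursors, needs a separate word. In the parental table it held 370 to 390 CPM in every library under 1 identifier. In the engineered table the same identifier held at most 0.104 CPM, while a second identifier under the same symbol held 8.88 to 13.6 CPM. Of 10446 identifiers in both tables with over 5 CPM under DMSO, 200 had an EGFP level below 2% of it, so NCAM1 was not alone in this gap between the tables, and its level in the engineered cells is uncertain.

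With OmoMYC the muscle genes moved in both directions, with rises in the majority of those called. Of the 44 listed, 32 had enough counts to be tested (about 0.337 CPM in at least 3 libraries), and edgeR's quasi-likelihood test, adjusted over all 13803 genes tested, called 15 induced and 3 suppressed at an adjusted p under 0.05. Over all genes tested, 27.3% were called induced and 25.7% suppressed. Past a 1.5-fold change, 8 members were induced and 1 suppressed, where 13.4% and 7.62% of all genes were. The 3 OmoMYC libraries all lay above the 3 EGFP libraries for 18 members and all below for 6, against 32.0% and 30.3% of all genes tested. The median log2 fold change of the 32 was 0.33, also with TNNI1 at its lower bound, and 0.01 over all genes tested. TNNI1 and TNNC2 passed the low-count filter only through their OmoMYC libraries, so they could enter the counts only as induced genes. CASQ1 reached the filter level in 3 OmoMYC but only 2 EGFP libraries, so it too needed its OmoMYC libraries to be tested.

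**Figure D2:**
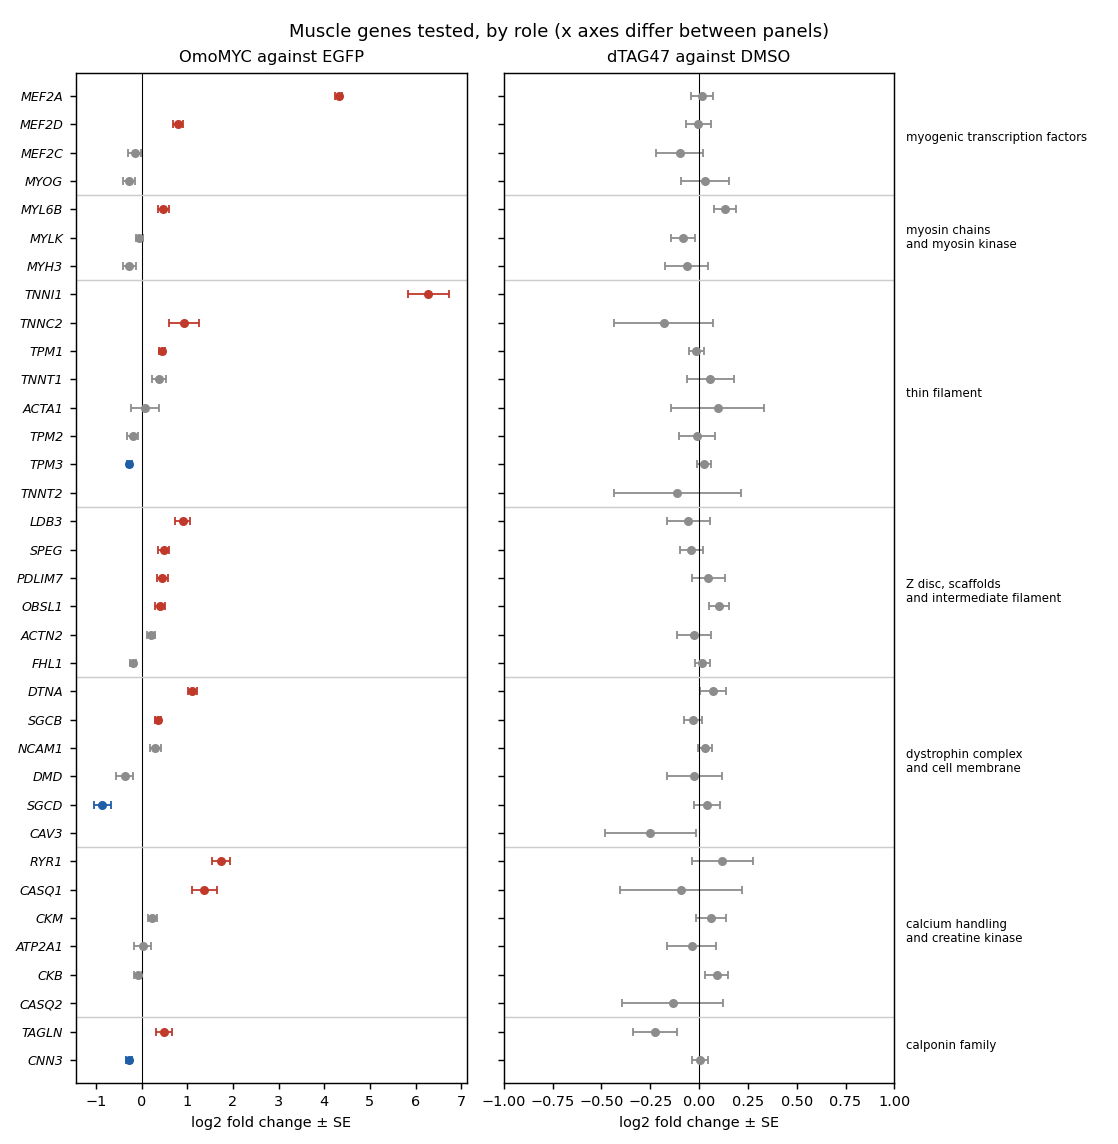
Log2 fold change with its standard error for each muscle gene tested, with OmoMYC against EGFP on the left (n = 3 each) and dTAG47 against DMSO on the right (n = 4 each, narrower axis), grouped by role. Red points were induced and blue points suppressed at an adjusted p under 0.05, and grey points were not called: 15 red and 3 blue points stand on the left and no coloured point on the right. The fitted value of TNNI1, which is near 0 counts with EGFP, depends on the prior count.

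Among the 5 myogenic transcription factors, 2 of the 3 MEF2 genes rose and neither MYOG nor MYOD1 did. MEF2A (ENSG00000068305.13, chromosome 15 of hg19 from 100105622 to 100256693, plus strand) stood at 45.4, 45.8 and 43.2 CPM in EGFP replicates 1, 2 and 3 and at 936, 908 and 841 CPM in OmoMYC replicates 1, 2 and 3. Every OmoMYC library was thus many times above every EGFP library, and the libraries within a group lay close together. The fold change was 20.0, a log2 fold change of 4.32 ± 0.07 (SE, adjusted p = 4.25e-11), which ranged from 4.26 to 4.33 as single libraries were left out. Among all 13803 genes tested, MEF2A ranked 63 by log2 fold change and 4 by p. The genes with larger changes all had under 40 CPM with EGFP, a level set after its values were seen. With OmoMYC its level per length was 126 CPM per kb, against 6.29 with EGFP and 5.33 with DMSO.

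The 3 RefSeq start sites of MEF2A lie within a short stretch of chromosome 15, and 2 of their promoter windows are shown here because MEF2A had the largest rise among members with at least 40 CPM. Each window runs from 250 bases before a start site to 50 after it, 5′ to 3′ on the plus strand of GRCh38.p14, with capitals for an E-box (CANNTG) or a MEF2 box on either strand. The first, at chr15:99565167-99565466, holds 1 E-box and no MEF2 box, and the other, at chr15:99565734-99566033, holds 1 MEF2 box and no E-box.
MEF2A first start: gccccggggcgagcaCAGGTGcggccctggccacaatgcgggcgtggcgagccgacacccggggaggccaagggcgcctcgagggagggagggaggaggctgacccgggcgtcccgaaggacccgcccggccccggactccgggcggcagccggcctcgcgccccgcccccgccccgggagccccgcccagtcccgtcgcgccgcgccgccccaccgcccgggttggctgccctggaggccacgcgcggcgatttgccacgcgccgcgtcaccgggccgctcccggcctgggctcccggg
MEF2A second start: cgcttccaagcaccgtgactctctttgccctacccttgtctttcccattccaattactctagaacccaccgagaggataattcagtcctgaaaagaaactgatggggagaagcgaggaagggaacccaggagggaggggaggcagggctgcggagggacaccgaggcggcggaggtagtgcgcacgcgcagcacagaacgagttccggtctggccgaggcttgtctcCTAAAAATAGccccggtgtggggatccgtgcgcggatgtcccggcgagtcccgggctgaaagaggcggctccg
The third window of MEF2A held neither motif. A MEF2 box was found in 8 of the 74 promoter windows of the members (10.8%) and in 2.99% of the 35116 windows of all genes, and an E-box in 68.9% of member windows and 68.7% of all windows. CACGTG, the E-box form known for MYC proteins, was in 4.05% of member windows, those of ACTN2 and DMD, and in 7.26% of all windows. These matches describe letters in the windows only.

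Of the 6 other genes tested within 1000 kb of MEF2A, 4 were induced with OmoMYC and none was suppressed, where 27.3% and 25.7% of all genes were. LRRC28, whose start lies 314 kb upstream on the same strand, went from 18.5 to 47.8 CPM (log2 fold change 1.37, adjusted p = 2.82e-06), and ADAMTS17, 777 kb downstream on the other strand, from 2.78 to 19.6 CPM (log2 fold change 2.82, adjusted p = 3.85e-07). LYSMD4, 168 kb downstream on the other strand, went from 17.7 to 30.1 CPM (0.76 on the log2 scale, adjusted p = 7.39e-05), and its annotated exons share 792 bases with those of MEF2A, 11.1% of MEF2A exon bases. Reads in that stretch cannot be assigned to 1 of the 2 genes unless counting used strand, which is not given in the sources used here. IGF1R stood at 0.19 on the log2 scale (adjusted p = 0.0305), while TTC23, at -0.20, and CTD-2054N24.2, at 0.15, were not called. In dTAG47 none of these genes was called, although LYSMD4 lay higher in every dTAG47 library (log2 fold change 0.24, adjusted p = 0.146). The part of position in the MEF2A result was not tested.

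**Figure D3:**
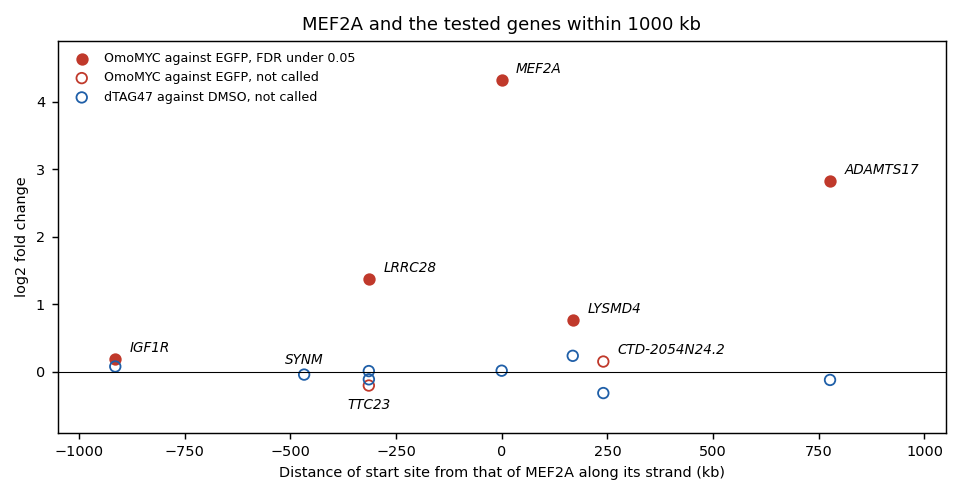
Log2 fold change of MEF2A and of the tested genes whose start site lies within 1000 kb of its own, against the distance in kb along the MEF2A strand, in red for OmoMYC against EGFP and in blue for dTAG47 against DMSO, filled where the adjusted p was under 0.05. MEF2A stands at 4.32, ADAMTS17 at 2.82, LRRC28 at 1.37 and LYSMD4 at 0.76, while the dTAG47 values lie between -0.32 and 0.24. SYNM was tested in the parental cells alone.

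MEF2D, a paralog of MEF2A, also rose, by much less. Its levels (ENSG00000116604.13, chromosome 1 from 156433519 to 156470571) were 27.1, 34.3 and 36.1 CPM in the EGFP libraries and 53.6, 57.0 and 59.2 CPM in the OmoMYC libraries. EGFP replicate 1 was the lowest of the 6, and the groups did not overlap. The log2 fold change was 0.80 ± 0.11 (adjusted p = 0.000161), and it stayed called without any 1 library, at 0.67 to 0.85. MEF2C, the third paralog tested, stood at 5.75 CPM on average with EGFP and was not called, at -0.15 on the log2 scale (adjusted p = 0.386). MYOG had 7.35, 7.84 and 9.85 CPM with EGFP and 6.68, 7.24 and 6.74 CPM with OmoMYC. All OmoMYC libraries were below all EGFP libraries, but the difference was not called (log2 fold change -0.27, adjusted p = 0.094), except without EGFP replicate 1 (-0.38, adjusted p = 0.0158).

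Of the 7 myosin chain and myosin kinase members, 3 were tested and 1 was induced (33.3%, near the 27.3% of all genes). MYL6B rose from 66.6 to 92.4 CPM, with a log2 fold change of 0.47 (adjusted p = 0.00753), which was not called without OmoMYC replicate 3 (0.36, adjusted p = 0.0596). MYH3, at -0.27, and MYLK, the myosin light chain kinase, at -0.05, were tested and not called. MYH7, MYH8, MYL1 and MYL4 were too low to test. MYL4, the atrial and embryonic light chain, held at most 1 count per EGFP library and 0.546, 0.0779 and 0.164 CPM in the OmoMYC libraries, so its OmoMYC mean was at least 2.58-fold higher than the level that 3 counts per library would give. This bound rests on OmoMYC replicate 1, with 16 counts against 3 and 5 in the others, and is 1.19-fold without it.

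The thin filament held the gene closest to an off-to-on pattern. TNNI1 (ENSG00000159173.14, chromosome 1 from 201372912 to 201398994, minus strand), the inhibitory troponin of slow skeletal fibres, had 1, 1 and 0 counts in the EGFP libraries and 71, 76 and 55 counts in the OmoMYC libraries. The OmoMYC levels were 2.42, 1.97 and 1.81 CPM, at least 20.3-fold higher than 3 counts per EGFP library would give (adjusted p = 2.29e-06). In the DMSO and dTAG47 libraries TNNI1 never exceeded 0.0976 CPM, so the OmoMYC libraries were the only ones of the 14 with a level over 1 CPM. Per length it was still low, at 0.276 CPM per kb over the 7488 bases of all its annotated exons, far under the tropomyosins.

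TNNC2, the calcium-binding troponin of fast fibres (ENSG00000101470.5, chromosome 20 from 44451853 to 44462384), had 0.252, 0.251 and 0.310 CPM with EGFP and 0.580, 0.519 and 0.460 CPM with OmoMYC. The groups did not overlap, at 7 to 20 counts per library, and the log2 fold change was 0.93 ± 0.32 (adjusted p = 0.0321). This call was lost without any 1 of the 6 libraries (log2 fold change 0.85 to 1.00, adjusted p = 0.0533 to 0.102), with DESeq2 (0.92, adjusted p = 0.163) and with no low-count filter (0.93, adjusted p = 0.0633). The DMSO libraries held 0.340 to 0.707 CPM of TNNC2, around the OmoMYC level.

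The tropomyosins split. TPM1 rose from 70.0 to 95.4 CPM (log2 fold change 0.45, adjusted p = 0.000509), TPM3 fell from 261 to 217 CPM (log2 fold change -0.27, adjusted p = 0.00358), and TPM2 was not called at -0.20 (adjusted p = 0.215), except without EGFP replicate 1 (-0.30, adjusted p = 0.0382). Of the exon bases of TPM1, 18.0% are shared with TPM1-AS on the opposite strand. TNNT1, the slow troponin T, stood at 0.38 on the log2 scale, which just missed the threshold (adjusted p = 0.0549) and was called without EGFP replicate 3 (0.45, adjusted p = 0.0201) and with no low-count filter (0.37, adjusted p = 0.0496). ACTA1, the skeletal actin, stood at 0.473 to 1.11 CPM over the 6 libraries and was not called, at 0.07 on the log2 scale (adjusted p = 0.869). TNNC1, TNNT2 and ACTC1 were too low to test.

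**Figure D4:**
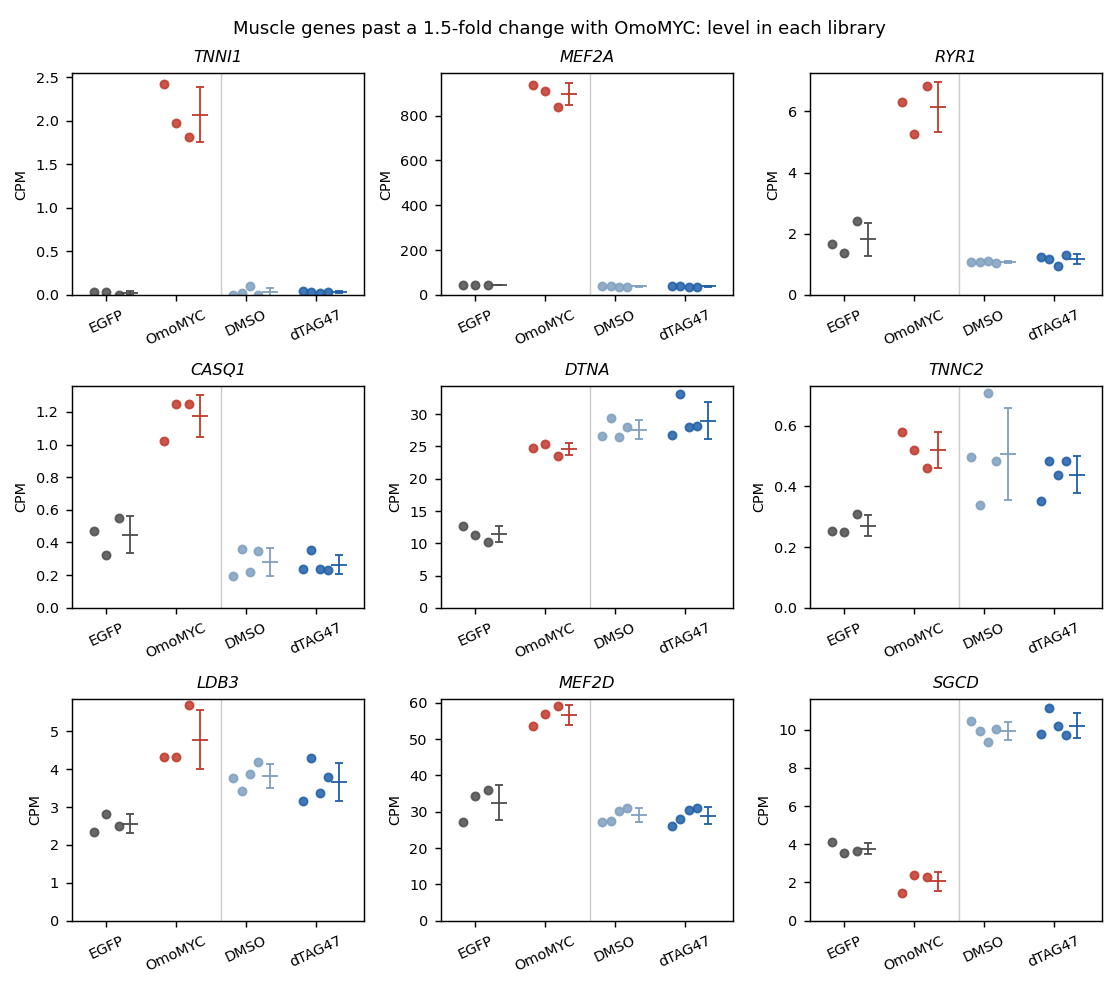
CPM in each of the 14 libraries for the 9 muscle genes called with at least a 1.5-fold change with OmoMYC, in order of fold change, with the mean and SD beside the points. Engineered and parental libraries stand on the left and right of the grey line and were counted and normalised apart. MEF2A reaches 841 to 936 CPM and TNNI1 1.81 to 2.42 CPM in OmoMYC libraries alone. DTNA with OmoMYC lies near its parental level, and SGCD lies highest in the parental cells. LDB3 with OmoMYC, at 4.33 to 5.69 CPM, lies above its DMSO libraries, at 3.42 to 4.19 CPM.

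Of the 6 Z disc and scaffold genes tested, 4 were induced (66.7%, against 27.3% of all genes) and none was suppressed. LDB3 (ENSG00000122367.15, chromosome 10 from 88426542 to 88495829), a PDZ-LIM protein of the Z disc, had 2.33, 2.83 and 2.51 CPM with EGFP and 4.33, 4.33 and 5.69 CPM with OmoMYC. Every OmoMYC library was higher, and the log2 fold change was 0.90 ± 0.16 (adjusted p = 0.00095). With DMSO the LDB3 mean was 3.82 CPM, between the other 2. The calls of SPEG, a kinase of the obscurin family that rose from 66.4 to 92.9 CPM (log2 fold change 0.48, adjusted p = 0.00603), of PDLIM7, another PDZ-LIM protein (0.45, adjusted p = 0.0117), and of OBSL1, an obscurin-like cytoskeletal adaptor (0.40, adjusted p = 0.00827), were all below 1.5-fold.

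For SPEG, PDLIM7, OBSL1, MYL6B, MEF2D and TAGLN, EGFP replicate 1 was the lowest of the 6 libraries. PDLIM7 was not called without OmoMYC replicate 3 (log2 fold change 0.35, adjusted p = 0.0788), nor was OBSL1 (0.30, adjusted p = 0.0669), which also missed the threshold without EGFP replicate 2 (0.35, adjusted p = 0.0505). ACTN2, the alpha-actinin of the Z disc, lay higher in every OmoMYC library, at 10.2 to 10.3 CPM against 8.47 to 9.17, and was not called (log2 fold change 0.20, adjusted p = 0.0915). FHL1 lay lower in every OmoMYC library (-0.19, adjusted p = 0.0508) and was called without EGFP replicate 1 (-0.15, adjusted p = 0.0434) or EGFP replicate 3 (-0.26, adjusted p = 0.00947). DESeq2 (adjusted p = 0.034), limma-voom (0.0479) and RLE factors (0.0438) also called FHL1 suppressed. DES, the intermediate filament protein desmin, was too low to test, with 0.273, 0.389 and 0.789 CPM in the OmoMYC libraries, at least 4.75-fold higher than 3 counts per EGFP library would give.

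Windows at the starts of SPEG and LDB3 are shown because they hold the MEF2 and CArG boxes found among the Z disc genes that rose. SPEG at chr2:219434593-219434892 has a MEF2 box with the same letters as that of MEF2A and an E-box, and LDB3 at chr10:86668261-86668560 has a CArG box, the binding motif of serum response factor, all in capitals on the plus strand of GRCh38.p14.
SPEG first start: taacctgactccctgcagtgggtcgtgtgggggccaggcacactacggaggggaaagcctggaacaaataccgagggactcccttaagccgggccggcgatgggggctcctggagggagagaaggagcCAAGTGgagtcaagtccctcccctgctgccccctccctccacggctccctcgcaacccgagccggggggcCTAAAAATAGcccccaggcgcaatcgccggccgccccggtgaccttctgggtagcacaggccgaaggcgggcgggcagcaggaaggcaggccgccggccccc
LDB3 first start: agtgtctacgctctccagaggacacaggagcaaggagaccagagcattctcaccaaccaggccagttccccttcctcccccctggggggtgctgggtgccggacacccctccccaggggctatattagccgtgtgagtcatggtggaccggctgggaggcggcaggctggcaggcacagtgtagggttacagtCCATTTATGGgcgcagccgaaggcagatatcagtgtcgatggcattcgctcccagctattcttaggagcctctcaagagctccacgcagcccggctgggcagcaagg
A CArG box was in 7 of 74 member windows (9.46%) and in 1.29% of all windows. The LDB3 windows overlap and hold the same CArG box, so the 7 windows stand for 6 genes. Windows of a gene can overlap, so these shares do not count independent promoters. The members with a CArG box were ACTA1, ACTC1, DMD, FHL1, LDB3 and MYLK, and those with a MEF2 box were CASQ2, CAV3, CKB, MEF2A, MEF2C, MYH8, MYL1 and SPEG. Of these 14 genes 9 were tested with OmoMYC, and 3 of the 9 (33.3%), LDB3, MEF2A and SPEG, were induced, near the 27.3% of all genes.

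Within the dystrophin complex the members did not move together. DTNA (ENSG00000134769.17, chromosome 18 from 32073255 to 32471808), alpha-dystrobrevin, a cytoplasmic partner of dystrophin, had 12.7, 11.3 and 10.2 CPM with EGFP and 24.7, 25.4 and 23.5 CPM with OmoMYC. The groups lay well apart, with a log2 fold change of 1.11 ± 0.10 (adjusted p = 1.17e-05). In parental cells DTNA stood at 27.6 CPM with DMSO, closer to the OmoMYC than to the EGFP line.

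SGCD (ENSG00000170624.9, chromosome 5 from 155297354 to 156194799), the delta-sarcoglycan of the membrane complex, was the only member suppressed past 1.5-fold. It had 4.10, 3.55 and 3.65 CPM with EGFP and 1.47, 2.39 and 2.30 CPM with OmoMYC. OmoMYC replicate 1 was the lowest, and the groups did not overlap (log2 fold change -0.86 ± 0.19, adjusted p = 0.00305). The DMSO mean was 9.93 CPM, above both engineered lines. SGCB, the beta-sarcoglycan, rose instead, from 73.7 to 94.1 CPM (log2 fold change 0.35, adjusted p = 0.00133).

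DMD, dystrophin itself, stood at 1.51 to 2.36 CPM and was not called (log2 fold change -0.37, adjusted p = 0.121), except without EGFP replicate 3 (-0.54, adjusted p = 0.0328). NCAM1, under its second identifier, was not called either (0.30, adjusted p = 0.0691), though it was without EGFP replicate 1 (0.41, adjusted p = 0.00791) or OmoMYC replicate 1 (0.39, adjusted p = 0.0445). CAV3, the muscle caveolin, and SGCA, the alpha-sarcoglycan, were too low to test. All OmoMYC libraries were above all EGFP libraries for SGCA, at least 2.78-fold higher than 3 counts per EGFP library would give, and all were below for CAV3.

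In the calcium store, the release channel and the calcium buffer of the skeletal sarcoplasmic reticulum rose, and the pump ATP2A1 did not pass the test. RYR1 (ENSG00000196218.7, chromosome 19 from 38924331 to 39085913), the skeletal ryanodine receptor, had 1.67, 1.36 and 2.41 CPM with EGFP and 6.31, 5.24 and 6.84 CPM with OmoMYC. The lowest OmoMYC library was more than 2-fold above the highest EGFP library, and the log2 fold change was 1.75 ± 0.20 (adjusted p = 5.88e-05). CASQ1 (ENSG00000143318.8, chromosome 1 from 160160365 to 160171676), the calsequestrin of fast muscle, had 0.473, 0.322 and 0.551 CPM with EGFP and 1.02, 1.25 and 1.25 CPM with OmoMYC. These were 9 to 16 and 30 to 48 counts per library, without overlap, and the log2 fold change was 1.38 ± 0.27 (adjusted p = 0.00162). With DMSO, RYR1 stood at 1.08 and CASQ1 at 0.281 CPM, below both engineered lines.

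The promoter window of CASQ1, at chr1:160190325-160190624 on the plus strand of GRCh38.p14, is shown for its 2 E-boxes, in capitals, and that of RYR1 held none of the motifs searched.
CASQ1 start: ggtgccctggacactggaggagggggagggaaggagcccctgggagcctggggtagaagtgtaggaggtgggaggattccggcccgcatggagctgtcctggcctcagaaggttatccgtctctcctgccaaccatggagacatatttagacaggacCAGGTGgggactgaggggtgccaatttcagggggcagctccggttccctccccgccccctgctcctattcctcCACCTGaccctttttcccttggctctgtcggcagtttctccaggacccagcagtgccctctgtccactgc
ATP2A1, the fast-muscle calcium pump, had 2.72 to 4.24 CPM with EGFP and 3.11 to 3.98 CPM with OmoMYC, with full overlap (log2 fold change 0.02, adjusted p = 0.93), and 21.6% of its exon bases are shared with ATP2A1-AS1 on the other strand. CKM was higher in every OmoMYC library and was not called (0.23, adjusted p = 0.0739), though it was without EGFP replicate 3 (0.29, adjusted p = 0.0194). CKB was not called at -0.08 (adjusted p = 0.465), except without EGFP replicate 1 (-0.19, adjusted p = 0.00669). CASQ2, the cardiac calsequestrin, was too low to test.

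The calponin family went both ways. CNN3 fell from 120 to 99.5 CPM (log2 fold change -0.27, adjusted p = 0.00871). TAGLN, a smooth muscle actin-binding protein, rose from 3.33 to 4.66 CPM (log2 fold change 0.49, adjusted p = 0.0323), with 34.1% of its exon bases shared with PCSK7 on the other strand. The TAGLN call was lost without EGFP replicate 1 (0.30, adjusted p = 0.103), EGFP replicate 2 (0.53, adjusted p = 0.0583), OmoMYC replicate 2 (0.48, adjusted p = 0.0779) or OmoMYC replicate 3 (0.38, adjusted p = 0.145). Of the 18 members called, 13 kept their call under every alternative tried and without any 1 library: CASQ1, CNN3, DTNA, LDB3, MEF2A, MEF2D, RYR1, SGCB, SGCD, SPEG, TNNI1, TPM1 and TPM3.

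A further list of 104 muscle genes gave the wider setting. In the OmoMYC comparison 96 were listed and 73 tested, 20 of them induced and 15 suppressed, 13 and 7 past 1.5-fold. These were 27.4% induced and 20.5% suppressed, against 27.3% and 25.7% of all genes tested, with a median log2 fold change of 0.09. The largest change at a mean of at least 1 CPM was that of MYBPC2, the fast-muscle myosin-binding protein C, from 0.849 to 14.4 CPM (log2 fold change 4.08, adjusted p = 9.76e-08). HRC, a calcium-binding protein of the sarcoplasmic reticulum, rose from 0.604 to 6.88 CPM (3.49 on the log2 scale, adjusted p = 1.8e-07), and PYGM, the muscle glycogen phosphorylase, from 0.774 to 4.43 CPM (2.52, adjusted p = 3.06e-06).

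MYOZ1, a calcineurin-binding Z disc protein (log2 fold change 1.36), ATP2A3, a calcium pump of non-muscle cells (1.12), TCAP, the titin cap (0.90), MKL1, a coactivator of serum response factor (0.71), and DAG1, dystroglycan (0.63), were also induced. PDLIM3, a PDZ-LIM relative of LDB3, fell from 46.8 to 25.7 CPM (log2 fold change -0.87, adjusted p = 1.09e-05), and CAV2, a caveolin, stood at -0.67 on the same scale (adjusted p = 0.00131). By role, to be read against those same shares of all genes, the other Z disc and scaffold genes had 6 induced and 2 suppressed of 14 tested, the other dystrophin complex genes 1 and 4 of 11, the other myosin genes 5 and 1 of 14, and the other thin filament genes 3 and 3 of 11. The other myogenic regulators had 2 and 2 of 6, the other calcium and energy genes 3 and 2 of 12, and the other calponin family genes 0 and 1 of 5.

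With dTAG47 no muscle gene was called by the test as used for OmoMYC. Of 46 listed, 34 were tested, edgeR called 0 in either direction, and DESeq2 and limma-voom also called 0, where edgeR called 0.159% of all 14470 genes tested. An unadjusted p under 0.05 was reached by 1 member, against 7.28% of all genes, and 0 of the tested members had groups without overlap, against 3.34% of all genes. The log2 fold changes of the 34 ran from -0.25 to 0.13, with a median of -0.01. The member with the unadjusted p under 0.05 was MYL6B, at 51.6, 53.5, 57.1 and 57.2 CPM with DMSO and 57.6, 55.3, 63.2 and 64.6 CPM with dTAG47. Its groups overlapped (log2 fold change 0.13 ± 0.06, adjusted p = 0.673). With a factor for replicates 1 and 2 against 3 and 4, MYL6B (0.13 ± 0.03, adjusted p = 0.0198) and OBSL1 (0.10 ± 0.03, adjusted p = 0.0464) were called, where calls over all genes went from 17 induced and 6 suppressed to 374 and 420.

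None of the 9 genes that passed 1.5-fold with OmoMYC was called with dTAG47 under any alternative. MEF2A had 40.7, 38.6, 36.2 and 36.4 CPM with DMSO and 39.0, 40.8, 37 and 36.7 CPM with dTAG47, with a log2 fold change of 0.02 ± 0.05 (adjusted p = 0.936). The 2 sets overlapped fully, and MEF2D likewise had 27.3 to 30.9 and 26.1 to 31.1 CPM. For DTNA the log2 fold change was 0.07 ± 0.07, for SGCD 0.04 ± 0.07, for LDB3 -0.05 ± 0.11, for RYR1 0.12 ± 0.16, for CASQ1 -0.09 ± 0.31 and for TNNC2 -0.18 ± 0.25, with adjusted p values of 0.753 or more. TNNI1 was too low to test.

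The lowest value was that of CAV3, at -0.25 ± 0.23 (adjusted p = 0.753), which stood at 0.648 to 0.878 CPM with DMSO and 0.400 to 0.889 CPM with dTAG47. CASQ2, CAV3 and TNNT2 were tested in this comparison and not in the OmoMYC one. Of the further list, 102 of 104 genes were listed and 74 tested, with 0 called and 5 at an unadjusted p under 0.05.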

How the data were processed

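Bulk RNA-seq of CHP-134 cells was analysed in 14 libraries: EGFP and OmoMYC (3 each) and DMSO and dTAG47 (4 each), grouped by their titles. After adapter trimming (Cutadapt) and STAR alignment to hg19, the authors counted reads per gene with featureCounts and deposited the raw counts in 2 tables. Strand, annotation and treatment of multiply mapping reads are not given in the sources used here. Per the study's methods, libraries of a group were biological replicates in both experiments.

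Each table was fitted alone over all genes with edgeR 4.0.16 in R 4.3.3 (TMM, whose factors also scale the CPM, filterByExpr with a minimum count of 10, robust quasi-likelihood test, Benjamini-Hochberg adjustment, threshold 0.05). The steps were tested on simulated data. DESeq2 1.42.0, limma-voom (limma 3.58.1), RLE factors, library size only, no filter, a replicate block and leaving out each library were alternatives. For the parental cells a factor for replicates 1 and 2 against 3 and 4 was another. Folds against a group at or under 3 counts in every library are bounds from that floor, which covers counting error only.

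The members, lists and motifs were chosen with earlier results of these data known. Members called with at least a 1.5-fold change are given by library, other called members by means or fold changes, the rest by counts and names. Of the further muscle genes, the 10 called with the largest change and a mean of at least 1 CPM are named. Positions and exon lengths are from GENCODE v44lift37, which held 16960 of 17810 and 18616 of 19143 identifiers. Exon length is the union of all annotated exons of a gene, so levels per kb depend on how many exons are annotated. Promoter windows are from RefSeq (GRCh38.p14) and held 33 of 48 members. Members without a window were MYL4, TAGLN, TNNI1, TNNC2, TNNI2, CRYAB, MYH7, TNNC1, TNNT3, MYOD1, DES, ACTN3, MYH3, NCAM1 and SGCA.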

Additional observations from a re-analysis of the deposited data

Results flagged for a closer look

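In groups of 4 libraries, the highest or lowest value stood apart from the others by Dixon's test in 2 of the 70 groups tested. The groups tested held the values of a member or the library totals, and chance alone would flag about 1 in 20. CASQ1 reached 0.353 CPM in dTAG47 replicate 2, where the other 3 dTAG47 libraries held 0.232 to 0.239 CPM. MYLK stood at 17.4 CPM in dTAG47 replicate 1, where the other 3 held 20.3 to 20.8 CPM.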

How the results depend on the processing

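In the OmoMYC comparison the number of members called suppressed went from 3 to between 3 and 7 as single libraries were left out, with 7 without EGFP replicate 1 and 5 without EGFP replicate 3. Over all genes tested, suppressed calls went from 3545 of 13803 to 3882 of 13949 and 4184 of 14009 in these fits. The median log2 fold change of the tested members went from 0.33 to between 0.24 and 0.36, lowest without OmoMYC replicate 3. In that fit 10 members were called induced instead of 15, and 2698 of 13920 genes instead of 3766 of 13803. ACTA1 and ATP2A1, neither called, ranged from -0.25 to 0.30 and from -0.15 to 0.14 on the log2 scale as single libraries were left out. MEF2A with dTAG47 ranged from -0.016 to 0.051. In the engineered cells, same-numbered libraries correlated at -0.07 to 0.29, where differently numbered ones stood at -0.29 to 0.25. In the parental cells, same-numbered libraries correlated at 0.01 to 0.16. Differently numbered parental pairs stood at 0.08 to 0.25 within replicates 1 and 2 or within 3 and 4. Pairs across these sets stood at -0.23 to -0.02. The shared variation in the parental cells thus followed replicates 1 and 2 against 3 and 4, for which the main test had no term. With the replicate block, 17 members were induced and 4 suppressed with OmoMYC, against 4233 and 3867 of all 13803 genes tested. CKM, NCAM1 and TNNT1 joined the induced and FHL1 the suppressed, while TNNC2 was lost (adjusted p = 0.0508). With dTAG47 1 member, MYL6B, was induced (adjusted p = 0.0292), where calls over all genes went from 17 and 6 to 306 and 362. With the factor for replicates 1 and 2 against 3 and 4, dTAG47 had 2 members induced, MYL6B and OBSL1. DESeq2, fitted to the 44 member identifiers with any count (NCAM1 under 2), called 17 induced and 4 suppressed. The fit with no filter called 18 and 4, and each had DES, MYL4 and SGCA among the induced. Over all 17581 identifiers, these fits called 3568 and 3627, and 3865 and 3551. The fit with no filter also had CAV3 among the suppressed. RLE factors and limma-voom called 15 and 4, and library size only 15 and 3. Over all 13803 genes, RLE factors called 3632 and 3669, limma-voom 3823 and 3535, and library size only 3905 and 3406. The 12 members not tested in each experiment were below the low-count filter, so differences in them were mostly not detectable at this depth.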
